A study of Mus musculus with 3 samples.

Results

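The genes described here encode tachykinin and opioid peptides and their receptors in enteric neurons. They are 9 of the 33353 genes of the deposited table and were chosen by name: the precursor genes *Tac1*, *Penk* and *Pdyn*, the neurokinin receptor genes *Tacr1* and *Tacr3*, and the opioid receptor genes *Oprm1*, *Oprd1*, *Oprk1* and *Oprl1*. Each was followed over 2060 cells, 354 from mouse 1, 1050 from mouse 2 and 656 from mouse 3. All 3 mice were *Ednrb*-KO (*Ednrb* -/-) on a C57BL/6 strain label at postnatal day 14, a model of Hirschsprung disease, and all carried Wnt1-Cre and a Cre-dependent tdTomato reporter, which labels cells of neural crest descent. By their stock names in the paper, the parent *Ednrb* and reporter lines were on a mixed background of C57BL/6 and another strain. Cells were sorted for tdTomato from the longitudinal muscle with myenteric plexus (LMMP) of the whole small intestine, with 1 10X Chromium library per mouse, and only cells taken as neurons by the authors are in the table. No wild-type library is part of these data, so every comparison is between kinds of cell within the same mice.

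Tachykinins and opioids act in opposite ways on gut movement. Substance P and neurokinin A, cut from the *Tac1* precursor, excite smooth muscle and other neurons through Gq-coupled neurokinin receptors, and in the gut they are best known from excitatory cholinergic motor neurons. Enkephalins from *Penk* and dynorphins from *Pdyn* act on Gi/o-coupled opioid receptors, which lower transmitter release from enteric neurons and slow transit.

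The stretches that these precursors are known for were read from the GENCODE M21 transcripts (GRCm38), and they are shown because they set the tachykinin precursor apart from both opioid precursors. In *Tac1*, capitals mark the codons of the shared C-terminal pattern Phe-any-Gly-Leu-Met, which occurred 2 times in 130 codons. The first copy is the end of substance P (chr6:7556735-7556764, + strand, exon 3) and the second is neurokinin A (chr6:7559101-7559130, + strand, exon 6).
Tac1 substance P: cccaagcctcagcagTTCTTTGGATTAATG
Tac1 neurokinin A: cataaaacagattccTTTGTTGGACTAATG
In *Penk* and *Pdyn*, capitals mark the codons of Tyr-Gly-Gly-Phe, with which opioid peptides begin. *Penk* held 7 copies in 268 codons, all in exon 2, and *Pdyn* held 3 copies in 248 codons, all in exon 4. The next codon tells methionine from leucine forms: it was atg in 6 copies and ctg in 1 copy of *Penk*, and ctg in 2 copies and ttg in 1 copy of *Pdyn*. The first and sixth copies of *Penk* (chr4:4134328-4134354 and chr4:4133935-4133961, - strand) and the first copy of *Pdyn* (chr2:129688232-129688258, - strand) read as follows.
Penk copy 1: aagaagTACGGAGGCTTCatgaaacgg
Penk copy 6: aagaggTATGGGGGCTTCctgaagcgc
Pdyn copy 1: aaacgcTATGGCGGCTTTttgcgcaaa

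Neurons were placed in 4 classes by their UMIs, the counted molecules, of 4 genes. *Nos1*, the neuronal nitric oxide synthase of inhibitory neurons, and *Chat*, the choline acetyltransferase of cholinergic neurons, defined 962 Nos1-only cells (130, 531 and 301 in mice 1 to 3) and 277 Chat-only cells (16, 148 and 113), each with at least 1 UMI of its gene and 0 of the other. *Etv1* and *Bnc2*, transcription factor genes that mark the main branches of enteric neurons, defined 1075 Etv1-only cells (161, 594 and 320) and 332 Bnc2-only cells (28, 182 and 122) in the same way. The *Nos1*/*Chat* and the *Bnc2*/*Etv1* comparisons therefore share cells and are not independent: 748 cells were both Nos1-only and Etv1-only and 131 were both Chat-only and Bnc2-only. Levels are UMIs of a gene per 10000 UMIs summed over the cells of a class in 1 mouse, and a share is the percentage of cells with at least 1 UMI.

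Mouse 1 was shallower than the others: its cells held 3735 UMIs at the median, those of mouse 2 held 9600 and those of mouse 3 held 9579. *Ednrb*, the targeted gene, had 1.82, 2.54 and 1.98 UMIs per 10000 in mice 1 to 3, which does not check the genotype because these counts do not show which exons the reads came from. Summed neuronal markers were 71.1 to 80.4 per 10000 in the 3 libraries, and all 10 were detected. By class they were 110, 79.7 and 76.3 in Chat-only cells against 94.0, 81.3 and 77.2 in Nos1-only cells of mice 1 to 3. In Bnc2-only cells they were 51.3, 80.0 and 78.1, against 87.7, 74.8 and 68.8 in Etv1-only cells. The table also held 74 smooth muscle-like cells, whose smooth muscle markers summed to at least 150 per 10000 and to at least 2 times their neuronal markers. They numbered 55, 15 and 4 in the 3 mice, with 62 cells between 100 and 200 per 10000, and are set beside the neurons as cells that should lack neuronal peptides. They were not free of neuronal RNA: summed neuronal markers in them were 12.1, 53.9 and 38.9 per 10000 in mice 1 to 3, so a value found in those of mice 2 and 3 is not a clean background. Summed smooth muscle markers were 20.7, 7.39 and 8.69 per 10000 in Chat-only cells against 34.2, 20.96 and 13.4 in Nos1-only cells of mice 1 to 3. They were 165, 18.4 and 7.10 in Bnc2-only cells against 21.9, 17.1 and 14.3 in Etv1-only cells. Of 9 glial markers, 6 were lower in Chat-only than in Nos1-only cells in every mouse and 6 were lower in Bnc2-only than in Etv1-only cells. The part of these cell types in the results below was not tested, except where the values without such cells are given. Cell barcodes shared between libraries numbered 2, in 4 cells.

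Among the 9 genes, *Oprk1* was the receptor gene that stood apart between classes, and *Tac1* and *Penk* carried most UMIs. Over all cells *Tac1* had 5770 UMIs in 888 cells, *Penk* had 3335 in 663 cells and *Oprk1* had 1780 in 589 cells. The remaining 6 genes had 30 to 227 UMIs each. Both cell class comparisons were fitted with limma on log2(UMIs per 10000 + 0.1) with the mouse as a block, over all genes with at least 30 UMIs, and p-values were adjusted by Benjamini-Hochberg over all genes tested. Differences below are on that log2 scale, which understates the change of low genes. *Tacr1* and *Tacr3* fell under the filter, so 7 of the 9 genes were tested. Of these 7, 2 passed between Chat-only and Nos1-only cells, where 0.0654% of 12239 genes passed, and 1 passed between Bnc2-only and Etv1-only cells, where 0.193% of 12409 genes passed. With voom precision weights, which give the small classes of mouse 1 less weight, 4 of 7 passed in the first comparison, where 10.7% of genes passed, and 2 of 7 in the second, where 5.82% passed. The median difference of the 7 genes was -0.04 for Chat-only minus Nos1-only cells, against -0.03 over all genes tested. It was 0.30 for Bnc2-only minus Etv1-only cells, against -0.01 over all genes.

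**Figure D1:**
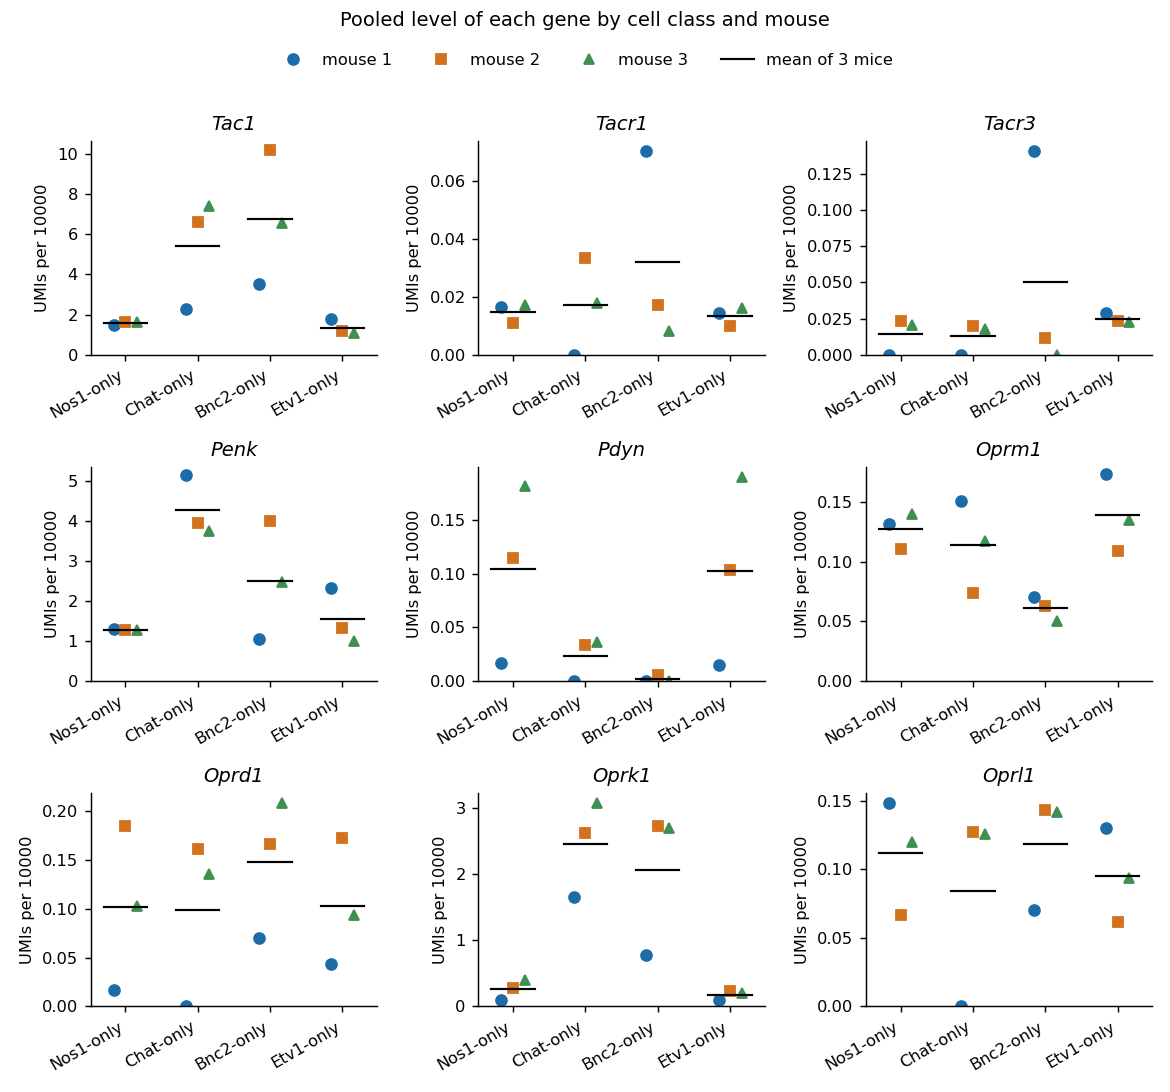
Levels of the 9 genes in UMIs per 10000 (y axes, a scale for each gene) by cell class, with 1 symbol per mouse and a bar at the mean of 3 mice. *Oprk1* was at 0.772 or above in every mouse of the Chat-only and Bnc2-only classes and at 0.400 or below in the Nos1-only and Etv1-only classes.

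*Tac1*, the substance P and neurokinin A precursor gene (chr6:7554879-7565834, + strand), had its highest levels in Chat-only and Bnc2-only cells. In Chat-only cells its level was 2.27, 6.62 and 7.41 UMIs per 10000 in mice 1 to 3, and in Nos1-only cells it was 1.47, 1.63 and 1.65. The levels were higher in Chat-only cells in 3 of 3 mice and did not overlap between the classes, as was the case for 18.0% of all genes tested. The log2 difference was 1.55 ± 0.30 (SE, n = 3 mice) and did not pass in limma (adjusted p = 0.15). It passed with voom weights, at 1.97 ± 0.16 (adjusted p = 3.7e-07), and in limma with any 1 mouse left out, at 1.28 to 2.03. Each left-out fit rests on 2 mice. Without mouse 1 far more genes passed than the 8 of the main fit, so passing there is not particular to *Tac1*. Over 15 alternatives the limma adjusted p ran from 1.2e-08, without mouse 1, to 0.34, with no replicate block.

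In Bnc2-only cells *Tac1* was at 3.51, 10.2 and 6.57 UMIs per 10000, and in Etv1-only cells at 1.81, 1.21 and 1.07. Again the classes did not overlap, as for 16.7% of all genes tested in this comparison. The log2 difference was 2.14 ± 0.38 (SE, n = 3 mice), with an adjusted p of 0.13 in limma and of 0.0012 with voom weights, where it was 2.47 ± 0.28. Over 16 alternatives the difference stayed between 1.61 and 2.99 and passed in 5. Among these were the fits without mouse 1 (2.74), where far more genes passed than in the main fit, and without mouse 3 (1.95). Without the smooth muscle-like cells the difference was 2.30 (limma adjusted p = 0.052). Mouse 1, with 16 Chat-only and 28 Bnc2-only cells, had the smallest difference between classes in both comparisons.

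Most *Tac1* UMIs lay in few cells. The 145 cells with 10 or more UMIs held 65.8% of them, and 72 cells held the first 50%. Of these 145 cells, 53 were Chat-only, 29 Nos1-only, 16 had both *Nos1* and *Chat* and 47 had neither. Such cells made up 19.1% of Chat-only, 3.01% of Nos1-only, 19.9% of Bnc2-only and 2.05% of Etv1-only cells. They were deep cells in mice 2 and 3: their median totals were 13408 and 13230 UMIs, and those of cells without *Tac1* were 9199.5 and 9354. In mouse 1 the medians were close, at 3907 and 3686.5. Pooled over mice of unlike depth, they were 13212 and 7495.

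Shares of cells with *Tac1* were 20.8%, 36.7% and 45.2% in Nos1-only cells and 31.3%, 62.8% and 65.5% in Chat-only cells of mice 1 to 3. The share in smooth muscle-like cells was 1 of 55 cells in mouse 1, 11 of 15 in mouse 2 and 1 of 4 in mouse 3, at median depths of 3428, 16778 and 6728 UMIs. With every cell thinned to 3000 UMIs, the share in mouse 2 was 33.3% of smooth muscle-like cells, 18.3% of Nos1-only, 17.4% of Etv1-only, 47.5% of Chat-only and 45.6% of Bnc2-only cells. In that mouse the shares of the Nos1-only and Etv1-only classes lay below that of the smooth muscle-like cells (5 of 15), and those of the Chat-only and Bnc2-only classes lay above it. In mouse 1, *Tac1* was found in 0 of 45 thinned smooth muscle-like cells and in 13.1% of Nos1-only and 11.9% of Etv1-only cells. In mouse 3 it was found in 0 of 4 and in 25.2% and 21.3%. How much of the *Tac1* of the Nos1-only and Etv1-only classes was free RNA was not tested.

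*Penk*, the enkephalin precursor gene (chr4:4133531-4138819, - strand), was higher in Chat-only cells. Its level there was 5.14, 3.95 and 3.74 UMIs per 10000 in mice 1 to 3. In Nos1-only cells it was 1.29, 1.28 and 1.27, so the classes did not overlap, as was the case for 18.0% of all genes tested. *Penk* rose by 1.65 ± 0.14 on the log2 scale (SE, n = 3 mice, limma adjusted p = 0.040; voom weights 1.65 ± 0.13, adjusted p = 4.9e-07).

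The *Penk* call held in 10 of 15 alternatives, among them each that left out 1 mouse (1.52 to 1.74). Without mouse 1, however, far more genes passed than in the main fit, and single cells carried much of the call. In mouse 1, 1 of the 16 Chat-only cells held 28 of 34 UMIs (82.4%). With the *Penk* UMIs of that cell taken out and the class total kept, the level there was 0.907 UMIs per 10000. The UMIs of the top cell of each mouse and class were taken out in the same way, an alternative chosen after seeing the data. The log2 difference was then 0.89 and the limma adjusted p was 0.43. With class genes required at 2 UMIs the difference was -0.15. Mouse 1 kept few cells in that setting, since its 16 Chat-only cells held 18 *Chat* UMIs. With the *Penk* UMIs of the top cells taken out, the Chat-only level of mouse 1, 0.907, lay below the 1.10 of its Nos1-only cells. In mice 2 and 3 the Chat-only levels were then 3.09 and 2.88, against 0.914 and 1.14 in Nos1-only cells.

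Between branches *Penk* did not differ beyond the spread. Bnc2-only cells were at 1.05, 4.01 and 2.46 UMIs per 10000, and Etv1-only cells at 2.31, 1.31 and 0.995. Mouse 1 went the other way from mice 2 and 3, and the log2 difference was 0.57 ± 0.50 (SE, n = 3 mice, limma adjusted p = 0.68). It passed without mouse 1, at 1.38, where far more genes passed than in the main fit. Cells with 10 or more *Penk* UMIs numbered 79 and held 57.8% of its UMIs, and 55 cells held the first 50%. Of the 79, 26 were Nos1-only, 22 were Chat-only, 5 had both *Nos1* and *Chat* and 26 had neither. Cells with much *Penk* were thus found in both classes, at 2.70% of the Nos1-only and 7.94% of the Chat-only class. Shares of cells with *Penk* were 14.6%, 25.6% and 40.2% of Nos1-only cells and 31.3%, 36.5% and 57.5% of Chat-only cells. In smooth muscle-like cells they were 1 of 55, 4 of 15 and 1 of 4 cells, and thinned to 3000 UMIs 13.3% of those of mouse 2, next to 14.9% of its Nos1-only, 14.4% of its Etv1-only, 22.3% of its Chat-only and 26.6% of its Bnc2-only cells. The overlapping antisense gene *A830012C17Rik* had 6 UMIs in all.

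*Pdyn*, the dynorphin precursor gene (chr2:129686565-129699844, - strand), followed the opposite pattern at a much lower level. It had 155 UMIs in 79 cells, of which 2 cells were in mouse 1, 40 in mouse 2 and 37 in mouse 3, and no cell had more than 8 UMIs. In Etv1-only cells the level was 0.0144, 0.103 and 0.190 UMIs per 10000. In Bnc2-only cells it was 0, 0.00571 and 0, from 1 UMI in 332 cells. A count of 0 allowed up to 0.210 per 10000 in the Bnc2-only cells of mouse 1 and 0.0250 in those of mouse 3. *Etv1* was detected in 72 of the 79 *Pdyn* cells (91.1%), against 63.6% of all cells. *Nos1* was detected in 60 (75.9%, against 51.7%) and *Bnc2* in 12 (15.2%, against 27.5%). These shares are not adjusted for depth, and those of all cells include the shallow mouse 1. Over all cells of mice 1 to 3, *Etv1* was detected in 50.3%, 67.9% and 63.9%. The shares were 37.9%, 54.5% and 54.7% for *Nos1* and 12.7%, 28.7% and 33.7% for *Bnc2*.

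The class comparisons of *Pdyn* did not pass in limma. For Chat-only (0, 0.0335 and 0.0360 UMIs per 10000) minus Nos1-only (0.0165, 0.114 and 0.181) cells the log2 difference was -0.65 ± 0.24 (adjusted p = 0.39), lower in 3 of 3 mice. For Bnc2-only minus Etv1-only cells it was -0.89 ± 0.27 (adjusted p = 0.31), also lower in 3 of 3 mice. With voom weights the first was -1.54 ± 0.46 (adjusted p = 0.038) and the second -3.16 ± 0.89 (adjusted p = 0.072). Without mouse 1, which had 2 *Pdyn* cells, both passed in limma, at -0.86 and -1.24, as did far more genes than in the main fits. The 74 smooth muscle-like cells had 4 *Pdyn* UMIs in 2 cells, a pooled level of 0.0847 per 10000 (95% exact Poisson interval 0.0231 to 0.217) against 0.129 in Nos1-only, 0.125 in Etv1-only and 0.00323 in Bnc2-only cells.

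*Oprk1*, the kappa opioid receptor gene (chr1:5588466-5606131, + strand), which is the receptor for dynorphins, differed in both comparisons. In Chat-only cells its level was 1.66, 2.63 and 3.09 UMIs per 10000 in mice 1 to 3, and in Nos1-only cells 0.0989, 0.284 and 0.400. It rose by 2.88 ± 0.17 on the log2 scale in Chat-only cells (SE, n = 3 mice, limma adjusted p = 0.020; voom weights 3.14 ± 0.17, adjusted p = 6.5e-09). The limma call held in 14 of 15 alternatives. It was lost with no replicate block (limma adjusted p = 0.069), and all 15 gave differences of 1.95 to 3.21. Without cells that had *Sox10*, a glial transcription factor gene, it was 3.21 (limma adjusted p = 0.015). Without the smooth muscle-like cells it was 2.90 (adjusted p = 0.019).

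In Bnc2-only cells *Oprk1* was at 0.772, 2.73 and 2.71 UMIs per 10000, and in Etv1-only cells at 0.101, 0.234 and 0.206. It rose by 2.80 ± 0.25 on the log2 scale in Bnc2-only cells (SE, n = 3 mice, limma adjusted p = 0.030; voom weights 3.57 ± 0.18, adjusted p = 9.4e-06), and passed in 13 of 16 alternatives. The call was lost at a pseudocount of 0.5 (adjusted p = 0.074), with all genes of at least 1 UMI (0.14) and with no replicate block (0.10). Without the smooth muscle-like cells the limma adjusted p was 0.0072, at a difference of 2.98.

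*Oprk1* was detected in fewer cells than *Tac1* or *Penk*, and its UMIs were spread more evenly over them. Its top cell had 20 UMIs, 1.12% of the total, and 107 cells held the first 50%. Shares of cells with *Oprk1* were 37.5%, 68.2% and 70.8% of Chat-only cells and 3.85%, 17.9% and 22.6% of Nos1-only cells. In smooth muscle-like cells they were 2 of 55, 5 of 15 and 2 of 4 cells. Thinned to 3000 UMIs, the mean share over mice was 44.1% ± 5.2 (SD, n = 3) in Chat-only, 35.5% ± 16.3 in Bnc2-only, 6.74% ± 4.52 in Nos1-only and 5.56% ± 2.08 in Etv1-only cells, and 12.0% ± 11.3 in smooth muscle-like cells. Pooled over mice, 6.25% of the thinned smooth muscle-like cells had it (95% exact binomial interval 1.73% to 15.2%), next to 7.89% of Nos1-only and 6.22% of Etv1-only cells. With 64 such cells, 45 of them from mouse 1, these shares could not be told apart. Of the 124 cells with 5 or more *Oprk1* UMIs, 61 were Chat-only, 7 Nos1-only, 15 had both *Nos1* and *Chat* and 41 had neither. By branch, 68 were Bnc2-only, 5 Etv1-only, 39 had both *Bnc2* and *Etv1* and 12 had neither.

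The other opioid receptor genes were low in every class. *Oprm1*, the mu receptor gene at which morphine acts (chr10:6758506-7038198, + strand), was at 0.132, 0.110 and 0.140 UMIs per 10000 in Nos1-only and 0.151, 0.0738 and 0.117 in Chat-only cells of mice 1 to 3. Its log2 difference was -0.10 ± 0.24 (limma adjusted p = 0.86). In Bnc2-only cells it was at 0.0702, 0.0629 and 0.04997, below the 0.173, 0.108 and 0.135 of Etv1-only cells in each mouse. The difference of -0.56 ± 0.19 did not pass (limma adjusted p = 0.35). It passed without mouse 1 (-0.50, limma adjusted p = 0.017), as did far more genes than in the main fit. The smooth muscle-like cells held 1 *Oprm1* UMI, 0.0212 per 10000.

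*Oprd1*, the delta receptor gene for enkephalins (chr4:132110726-132144486, - strand), ran from 0 to 0.0702 UMIs per 10000 in the classes of mouse 1 and from 0.0934 to 0.208 in those of mice 2 and 3. The spread between mice exceeded that between classes, with log2 differences of -0.04 ± 0.23 (limma adjusted p = 0.94) and 0.30 ± 0.22 (0.64). *Oprl1*, the nociceptin receptor gene (chr2:181715016-181720985, + strand), ran from 0 to 0.148 per 10000, with differences of -0.28 ± 0.38 (limma adjusted p = 0.76) and 0.16 ± 0.25 (0.83). The direction of *Oprl1* changed with the setting in both comparisons. Between branches it passed without mouse 1 (0.45, limma adjusted p = 0.037), as did far more genes than in the main fit.

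Neurokinin receptor genes were close to the limit of detection. *Tacr1*, the substance P receptor gene (chr6:82402334-82560104, + strand), had 30 UMIs in 29 cells, and *Tacr3*, the neurokinin B receptor gene (chr3:134829007-134934579, + strand), had 39 UMIs in 36 cells. In the 4 classes *Tacr1* was detected in 1.12% to 2.53% of cells pooled over mice and *Tacr3* in 0.904% to 2.05%. In smooth muscle-like cells *Tacr1* was found in 3 of 74 cells and *Tacr3* in 1 of 74. No order of classes can be read from these counts at this depth.

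**Figure D2:**
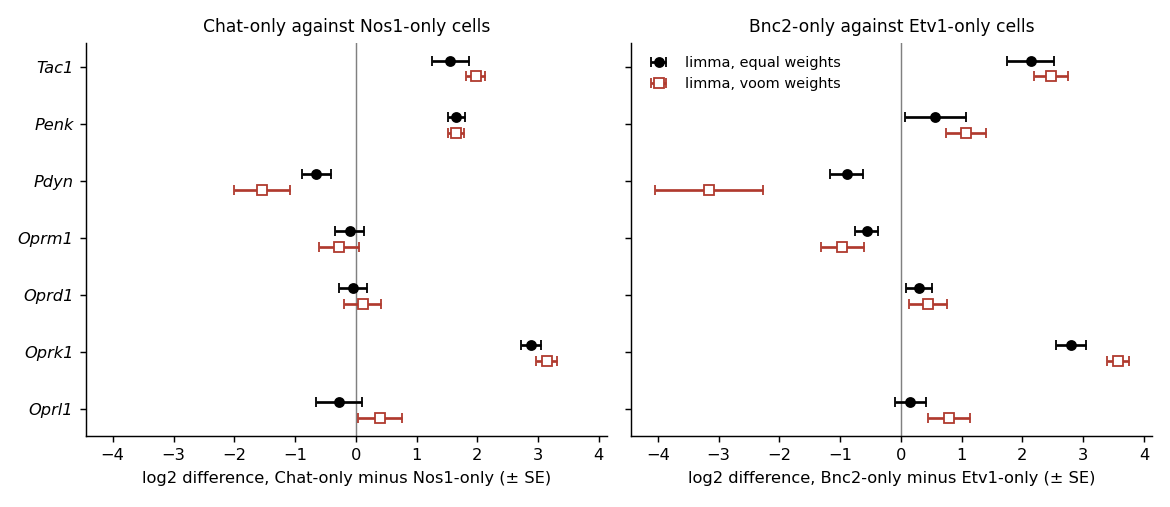
Log2 differences in level (x axes, with SE) for the 7 genes tested, Chat-only minus Nos1-only cells on the left and Bnc2-only minus Etv1-only cells on the right, from limma with equal weights (filled) and with voom weights (open). *Oprk1* lay farthest to the right with either weighting, at 2.80 to 3.57.

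Since the classes overlap, levels were also read in groups of cells that do not. Of the groups set by both gene pairs, 24 of at least 10 cells were found over the 3 mice. Cells that were Chat-only and Bnc2-only had *Tac1* at 8.30 and 8.55 UMIs per 10000 in mice 2 and 3, against 0.832 and 1.02 in cells that were Nos1-only and Etv1-only. *Oprk1* was at 2.89 and 3.66 in the former and at 0.159 and 0.198 in the latter. Among cells with neither *Nos1* nor *Chat*, *Oprk1* was at 0.826, 2.87 and 1.84 in Bnc2-only cells of mice 1 to 3 and at 0.158, 0.319 and 0.143 in Etv1-only cells. Among Nos1-only cells, the few that were also Bnc2-only (21 in mouse 2 and 15 in mouse 3) had *Oprk1* at 1.28 and 1.81, and at 0.981 and 1.46 without the cell with the most *Oprk1*. Their *Tac1* was at 14.9 and 5.95, but 1 cell of mouse 2 held 303 of 348 UMIs, and without the top cells the levels were 2.07 and 4.09. *Oprk1* was thus higher in the Bnc2-only group than in the Etv1-only group within each of these backgrounds and in every mouse with both groups. In the Chat-only cells that were Etv1-only, *Penk* was at 14.7 in 17 cells of mouse 2, where 1 cell held 128 of 255 UMIs (8.23 without it), and at 1.76 in 12 cells of mouse 3 (0.806 without its top cell).

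**Figure D3:**
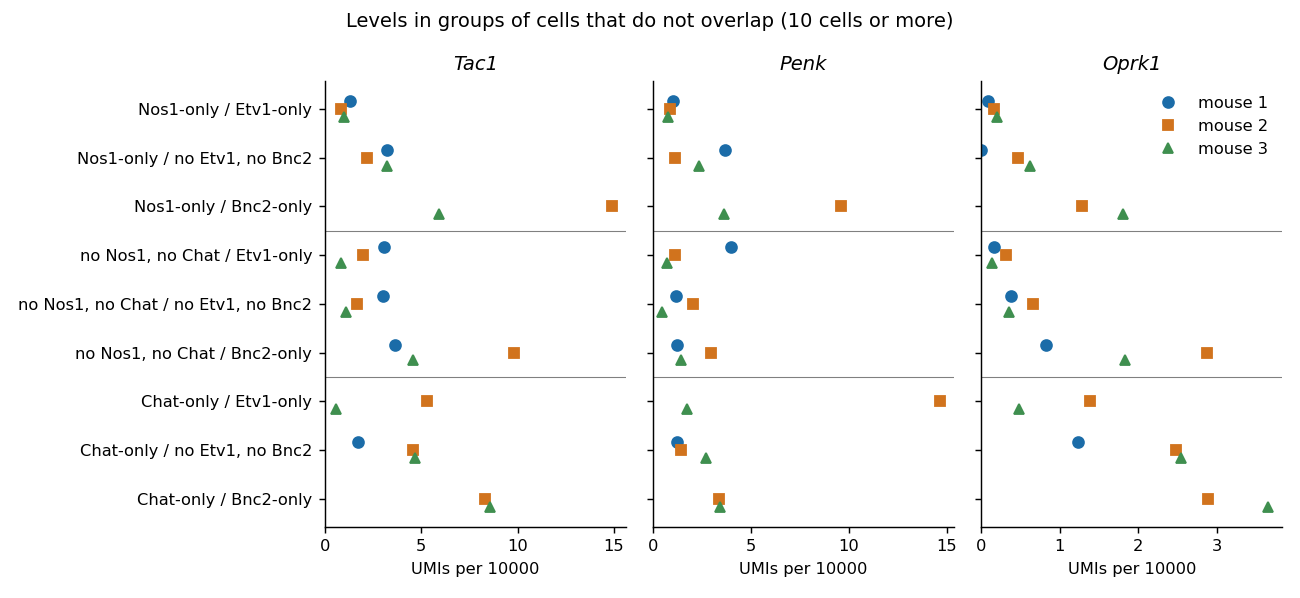
Levels of *Tac1*, *Penk* and *Oprk1* (x axes, UMIs per 10000) in groups of cells set by *Nos1*/*Chat* and *Etv1*/*Bnc2* that do not overlap (rows), with 1 symbol per mouse for groups of 10 cells or more. *Oprk1* was higher in the Bnc2-only row than in the Etv1-only row of each block in every mouse that had both groups.

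*Tac1* and *Penk* were found together in 455 cells, 41, 227 and 187 in mice 1 to 3. These were 51.2% of the cells with *Tac1* and 68.6% of the cells with *Penk*. Independence within each mouse gives 302 cells, a ratio of 1.51 (95% exact Poisson interval 1.37 to 1.65, which covers counting error only). The ratio was 2.81, 1.61 and 1.28 in mice 1 to 3 and so above 1 in each. Deep cells are more likely to hold a UMI of any gene, and with the depth of each cell taken into account 342 cells were expected and the ratio was 1.33. With every cell thinned to 3000 UMIs it was 2.06 (220 cells against 107 expected), and at 2 UMIs of each gene it was 2.65. Both genes were higher in Chat-only cells, and ratios over all cells do not separate pairing within a class from the mix of classes.

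The share of cells with *Penk* rose with *Tac1* in each mouse. Pooled over mice, 17.7% of 1172 cells with no *Tac1* had *Penk*, 40.8% of 608 cells with 1 to 4 UMIs, 65.9% of 135 cells with 5 to 9 and 81.4% of 145 cells with 10 or more. The level of *Penk*, which is relative to depth, was 0.550, 1.22, 3.36 and 9.37 UMIs per 10000 in these steps. At 10 or more UMIs of both genes there were 42 cells, 29 in mouse 2, 13 in mouse 3 and 0 in mouse 1, where 9 cells reached that number for *Tac1* and 7 for *Penk*. Of the 42, 15 were Chat-only, 9 were Nos1-only, 3 had both *Nos1* and *Chat* and 15, all in mouse 2, had neither.

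In mice 2 and 3 the cell with the most *Tac1* was also the cell with the most *Penk*. In mouse 2 it held 303 UMIs of *Tac1* and 200 of *Penk* among 16062 UMIs, 1.67 times the median depth of its mouse, with 1 UMI of *Nos1*, 1 of *Bnc2* and none of *Chat* or *Etv1*. This cell held 33.7% of the *Tac1* and 28.4% of the *Penk* UMIs of all Nos1-only cells of mouse 2. In mouse 3 it held 109 UMIs of *Tac1*, 96 of *Penk* and 7 of *Oprk1*. In mouse 1 the cell with the most *Penk* had none of *Tac1*.

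**Figure D4:**
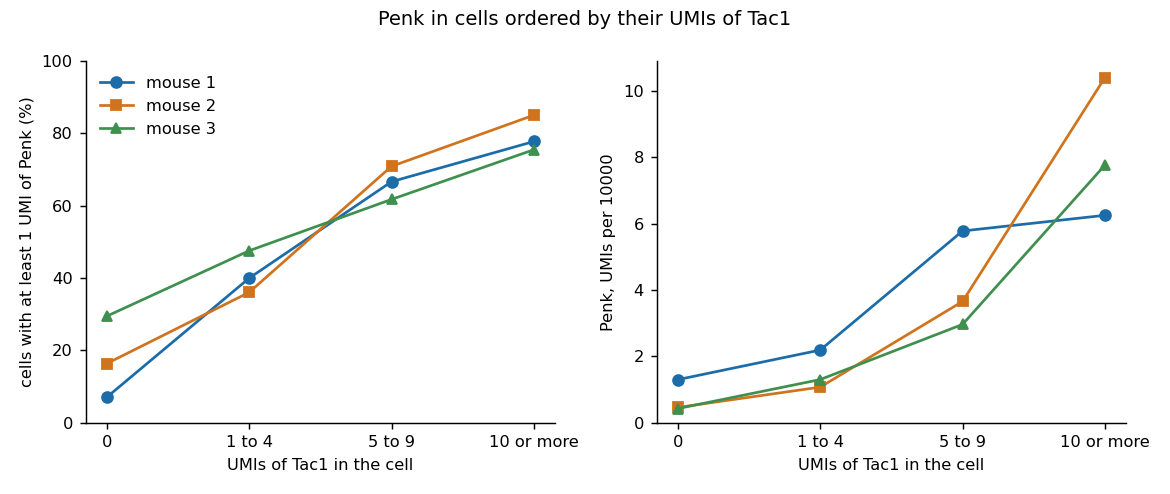
Percentage of cells with *Penk* (left) and level of *Penk* in UMIs per 10000 (right) in cells grouped by their UMIs of *Tac1* (x axes), with 1 line per mouse. Both went up from cells with no *Tac1* to cells with 10 or more in each of the 3 mice.

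Other pairs of these genes were counted in the same way. *Oprk1* was found in 451 of the 888 *Tac1* cells, 1.67 times the number under independence (2.17 times when thinned), and in 313 of the 663 *Penk* cells, 1.53 times (1.92 when thinned). *Oprm1* with *Tac1* and *Oprd1* with *Penk* were at 1.06 and 0.954 times, with intervals that include 1. *Pdyn* and its receptor gene *Oprk1* were found together in 16 cells against 25.6 expected, and in 2 cells against 7.19 when thinned. These ratios are over all cells of a mouse and do not separate pairing within a class from the mix of classes.

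The genes whose level was most like that of *Tac1* were sought among 9135 genes with at least 200 UMIs over the same 24 groups of cells. They were *App*, the amyloid precursor protein gene (Pearson r = 0.82), *Mdga1* (0.82), *Il11ra1* (0.77), *Dmkn* (0.77) and *Crispld1* (0.77). *Penk* came 14th for *Tac1* (r = 0.73) and *Oprk1* 28th (0.70). For *Penk* they were *Tm4sf4* (0.74), *Tac1* (0.73), *Ermard* (0.66), *Smyd3* (0.66) and *Spock1* (0.66). These correlations are descriptive: groups of a mouse share a library and its depth. The order depended on single libraries, since without mouse 1 the first 5 for *Tac1* came at ranks 10 to 25, *Il11ra1* came at rank 41 without mouse 3 and, for *Penk*, *Ermard* came at rank 81 without mouse 2.

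Of the other genes of these families, *Tac2*, the neurokinin B gene, had 186 UMIs in 115 cells and *Pomc*, the endorphin precursor gene, had 164 in 145 cells. *Tacr2* had 1 UMI, *Pnoc*, the nociceptin precursor gene, had 25, and *Tac4* had none. Neither of the 2 that could be tested passed in limma in either comparison. *Pomc* was lower in Bnc2-only than in Etv1-only cells with voom weights (-1.76 ± 0.38, adjusted p = 0.025) and did not pass in limma (adjusted p = 0.16).

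Of 15 genes for peptide processing and degradation, 13 were tested and 0 passed in limma in either comparison, where 0.0654% and 0.193% of all genes passed. With voom weights 4 were higher and 1 lower in Chat-only cells, where 10.7% of all genes passed, and 2 higher and 1 lower in Bnc2-only cells, where 5.82% passed. *Chgb*, the secretory granule protein chromogranin B, was at 6.95, 6.31 and 8.66 UMIs per 10000 in Chat-only against 1.60, 2.25 and 2.85 in Nos1-only cells (log2 difference 1.69 ± 0.15, limma adjusted p = 0.051). *Pcsk1* and *Pcsk2*, the convertases that cut peptide precursors, differed by 1.02 ± 0.17 and 0.78 ± 0.12 in the same direction (limma adjusted p = 0.11 and 0.10). *Pcsk1n*, which encodes an inhibitor of *Pcsk1*, went the other way (-0.51 ± 0.20, limma adjusted p = 0.41; voom weights -0.66, adjusted p = 0.00094).

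Of 23 genes for the signalling of these receptors, 21 were tested and 0 passed in limma in either comparison, against the same 0.0654% and 0.193% of all genes. With voom weights 5 were higher and 3 lower in Chat-only cells, against the same 10.7% of all genes. In Bnc2-only cells 3 were higher and 2 lower, against 5.82%. *Rgs4*, a regulator that shortens G-protein signals, was at 3.93, 3.51 and 4.05 UMIs per 10000 in Chat-only against 2.47, 1.43 and 1.61 in Nos1-only cells (1.05 ± 0.16, limma adjusted p = 0.11). *Kcnj5*, a G-protein-gated potassium channel gene, had 0 UMIs in the Chat-only cells of all 3 mice, which allows up to 0.454, 0.0201 and 0.0270 per 10000, and was at 0.115, 0.159 and 0.140 in Nos1-only cells (limma adjusted p = 0.11, voom weights 0.0043). The adenylyl cyclase genes *Adcy1* and *Adcy5* had differences of 0.88 ± 0.22 and -1.28 ± 0.41 (limma adjusted p = 0.23 and 0.34).

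As a check of the classes, all 4 cholinergic companions had positive differences in Chat-only cells. Of these, 0 passed in limma and 3 with voom weights, where 0.0654% and 10.7% of all genes passed. *Slc18a3*, the vesicular acetylcholine transporter gene, had a difference of 1.56 ± 0.18 (limma adjusted p = 0.071). Of 6 nitrergic companions, *Vip* and *Npy* fell in Chat-only cells (-3.58 ± 0.26 and -3.43 ± 0.28, limma adjusted p = 0.038 and 0.040), and *Vip*, *Gal*, *Npy* and *Ass1* fell in Bnc2-only cells (log2 differences of -4.26 to -2.41, limma adjusted p = 0.0030 to 0.030). The other two, *Nos1ap* and *Gch1*, went the other way in Chat-only cells, with differences of 1.09 ± 0.29 and 0.58 ± 0.16 that did not pass in limma (adjusted p = 0.26 for both) and passed with voom weights, as they did in Bnc2-only cells.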

How the data were processed

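Single-cell RNA-seq of sorted tdTomato-positive LMMP cells was available for 3 *Ednrb*-KO mice, with 1 library each. Per the labels, Cell Ranger and mm10 were used (versions are not given in the sources used here). The authors filtered cells by gene number and mitochondrial share, left out genes they held to be confounding, kept the neurons, and deposited natural log values, ln(1 + UMIs per 10000). The libraries were sequenced on either NextSeq or NovaSeq instruments, and which was used for which mouse is not given in the sources used here. A doublet step is not described in the methods and none was added, so the part of doublets in cells of high UMI number or with genes of several classes was not tested.

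The smallest value above 0 of a cell was taken as 1 UMI, which made 100% of values and of cell totals whole within 1e-06. The totals include genes left out of the table, 12.2% to 14.6% of UMIs. Because the deposited values are logs, count models were not used. UMIs were summed per mouse and class, genes with fewer than 30 UMIs and the 4 class genes were left out, and limma 3.58.1 in R 4.3.3 was fitted with the mouse as a block, since both classes come from the same animals, at an adjusted p of 0.05. The step was run on simulated class sums, drawn with no difference between mice other than depth and with no single high cells. That simulation does not show how the fit behaves in data that have them. Thinning to 3000 UMIs left out 178 cells. Intervals are 95% and, like the 3 counts that a count of 0 allows, cover counting error only. The rule for smooth muscle-like cells was set after the values were seen. 0 columns lay outside the sample list. Gene positions are those of GENCODE M21 (GRCm38), in which all 9 genes were matched, and the annotation the authors used may differ.

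The 9 genes and all lists were chosen with earlier results of these data known. The text names the 9 genes, up to 4 genes per list that came first by size of difference among those past the threshold (with voom weights where none passed in limma), and the 5 genes most like *Tac1* and *Penk*. Alternatives covered the pseudocount, the filter, scaling, weights, the block, class definitions, left-out cells and left-out mice. 1 further setting, which left out more cells, is not reported here, the counts of alternatives do not include it, and no call is stated to hold under it. 1 glial marker is likewise not reported. The mice are separate animals, and the replicate block pairs classes of 1 mouse.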

Additional observations from a re-analysis of the deposited data

How the results depend on the processing

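The number of the 7 tested genes that passed between Chat-only and Nos1-only cells, 2 in limma, became 1 at a pseudocount of 0.05, with genes of at least 1 UMI, with the mean over cells, with no replicate block and, as an alternative chosen after seeing the data, without the UMIs of the top cell of each gene (class totals were kept). It became 4 with voom weights, where 10.7% of all genes passed in place of 0.0654%. It ran from 3 to 4 when each mouse was left out, the 4 (*Tac1*, *Penk*, *Pdyn* and *Oprk1*) without mouse 1. Between Bnc2-only and Etv1-only cells the 1 became 0 at a pseudocount of 0.5, with genes of at least 1 UMI and with no replicate block. It became 2 with voom weights (5.82% of all genes in place of 0.193%), with class genes at 2 UMIs and without cells that had *Sox10* (chosen after seeing the data). It ran from 1 to 6 when each mouse was left out, and the 6, *Oprd1* alone missing, came without mouse 1, when 3081 genes passed in place of 24 (2133 in place of 8 in the first comparison). Each left-out fit rests on 2 mice with 1 residual degree of freedom per gene. For the other settings the number of all genes that passed is not given here, so their counts cannot be set against it. The cause of the shifts in these counts was not tested.

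*Tac1* and *Oprk1* kept their direction in all alternatives reported here for both comparisons. *Penk* turned with class genes at 2 UMIs, to -0.15 in the first comparison and -0.83 in the second, as did *Oprm1* in the first (0.88) and *Oprl1* in the second (-0.26). Mouse 1 kept few cells in this setting: its 16 Chat-only cells held 18 UMIs of *Chat* and its 28 Bnc2-only cells 31 of *Bnc2*. In the first comparison *Oprl1* also turned with voom weights (0.40), when thinned (0.0036) and without mouse 1 (0.24, from -0.64 over the left-out mice), and *Oprd1* with voom weights (0.11) and without mouse 1 (0.044, from -0.17). In the second, *Oprl1* turned without *Sox10* cells (-0.19), without mouse 2 (-0.057, up to 0.45 over the left-out mice) and without the top cells (-0.060), and *Oprd1* when thinned (-0.10). Median-of-ratios scaling moved the median of all genes by -0.09 and -0.02, class genes at 2 UMIs by -0.23 and -0.15, voom weights by 0.10 and 0.07 and the left-out top cells by -0.16 and -0.11. The ratio of cells with both *Tac1* and *Penk* was 2.65 at 2 UMIs and ran from 1.42 to 1.72 when each mouse was left out. Leaving out the 4 cells with shared barcodes moved no share by more than its spread between mice. With 16 Chat-only cells in mouse 1, depth limits the differences of genes below about 0.5 UMIs per 10000.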
